A study of Sus scrofa with 12 samples.

Results

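The nuclear genes of respiratory complexes II to V were taken from the mRNA table by their gene names: the SDH subunits (SDHA to SDHD), every UQCR gene, CYC1, CYCS, the COX genes numbered 4 to 8 and 10 to 19, and every ATP5 gene. This rule found 42 of the 19256 genes of the table, with 90 of its 47559 transcripts, and 21 of the 42 genes had more than 1 transcript. The TPM (transcripts per 1000000) of the transcripts of a gene were added up. The genes held 3 members of complex II, 6 of complex III, cytochrome c, 11 subunits of complex IV (counting COX7A2L), 7 assembly factors of complex IV and 14 members of complex V. SDHA, UQCR11 and COX7B carried no gene name in the table and were recognized only by their gene IDs, so they are not among the 42.

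RNA was sequenced from part of the hypothalamus of 3 germ-free (GF) pigs and of 3 pigs colonized with gut microbiota (CG), Bama piglets of 1 sow, all labelled male, delivered by hysterectomy and 45 days old according to the sample labels (the methods of the paper give a slightly younger age). The CG pigs were born germ-free as well and received a fecal microbiota transplant from day 3 to day 7, and the GF pigs received none. All were reared in sterile isolators, so the isolator and the colonization cannot be told apart, and the p values measure the spread among pigs of a single litter.

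Oxidative phosphorylation passes electrons along complexes in the inner mitochondrial membrane and uses the proton gradient that they build to make ATP. Complex II feeds in electrons from succinate, complex III hands them to cytochrome c, complex IV (cytochrome c oxidase) passes them to oxygen, and complex V is the ATP synthase. Complex II is built from nuclear genes only, whereas complexes III, IV and V also need subunits encoded by mitochondrial DNA (mtDNA), and neurons depend on this pathway for most of their ATP.

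The labelled sex was checked first, against Y-linked genes. ZFY was 13.7 and 16.1 TPM in CG pigs 1 and 2, 0.03 TPM or less in all 3 GF pigs and listed at 0 in CG pig 3. KDM5D was 3.46 and 3.45 TPM in CG pigs 1 and 2 and 0.04 TPM or less in the other 4 libraries. EIF1AY, found through its gene ID, was 11.8 and 15.6 TPM in CG pigs 1 and 2 and listed at 0 in the other 4. The GF libraries and that of CG pig 3 thus went against the label, since RNA of these Y-linked genes was at or near 0 there. With CG pig 3 left out, the presence of this RNA and the colonization coincide and cannot be told apart. The part of sex in the results was not tested.

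Some libraries also stood apart in cell type or region markers. The summed TPM of 19 hypothalamic marker genes was 47.7 in GF pig 1, against 1188 and 1089 in the other GF pigs and 1199 to 2704 in the CG pigs, and 9 of the 19 were lower in the GF pigs. The sum of 12 thalamic markers was 1246, 219 and 1179 TPM in GF pigs 1 to 3 and 256 to 298 TPM in the CG pigs. Of 12 anterior pituitary markers, 11 were in the table and 5 were expressed enough to test, with a sum of 14.6 to 20.4 TPM in the GF pigs and 82.8 to 5637 TPM in the CG pigs, highest in CG pig 3. Erythroid markers (6 of 7 in the table) summed to 435 to 1205 TPM in the GF pigs and 22.2 to 30.0 TPM in the CG pigs. Only 4 of them were expressed enough to test, of which 1 was higher in the GF pigs, and their median log2 fold change was 0.22. Choroid plexus markers (7 of 8 in the table, 2 of them higher in GF pigs) summed to 143 to 332 TPM and 78.7 to 131 TPM. The sum of 8 endothelial markers was 150 to 187 TPM and 195 to 221 TPM, again without overlap, although 0 of the 8 were higher or lower by themselves. The part of these differences in the results was not tested. Tests of members that passed, of their transcripts and of the pathway genes named as higher or lower are also given without GF pig 1 and CG pig 3, while sums, shares and ratios are given per library only.

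All 42 genes were expressed, at a mean over the 6 libraries of 3.77 (COX10) to 853 TPM (COX4I1), and 21 of them had a mean of at least 100 TPM. In GF pigs, 5 of the 42 genes were higher (11.9%): ATP5ME, COX17, COX4I1, CYCS and SDHB, which belong to complex V, the assembly of complex IV, complex IV, cytochrome c and complex II. By the same rule, 1.08% of all 14641 tested genes were higher in the GF pigs and 4.93% were lower. None of the 42 was lower by limma at an adjusted p under 0.05, although ATP5MD and COX18 were lower at an unadjusted p under 0.05, where 9 genes were higher (4.31% of all tested genes were higher and 26.6% lower at that level). Without the expression trend in limma, 0 were lower as well, and 3 were lower at an unadjusted p under 0.05. With a log2 fold change of at least 1 also required, 3 genes remained (COX4I1, COX17 and ATP5ME), against 0.471% of all tested genes higher and 2.42% lower. In bulk tissue, a different share of cells and a different amount of RNA per cell cannot be told apart.

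The count of 5 depended on the set of libraries. It was 0 without GF pig 1, 5 without GF pig 2 (COX5A in place of COX17), 0 without GF pig 3, 1 (ATP5ME) without CG pig 1, and 0 without CG pig 2 or without CG pig 3. In the whole table the numbers of genes higher and lower were then 14 to 417 and 8 to 920, instead of 158 and 722. Without GF pig 1 and CG pig 3 together 0 members passed, and the smallest adjusted p among them was 0.078. At an unadjusted p under 0.05, 8 members were higher and 2 were lower in this fit. The share of all tested genes at that level was not computed for these libraries.

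**Figure D1:**
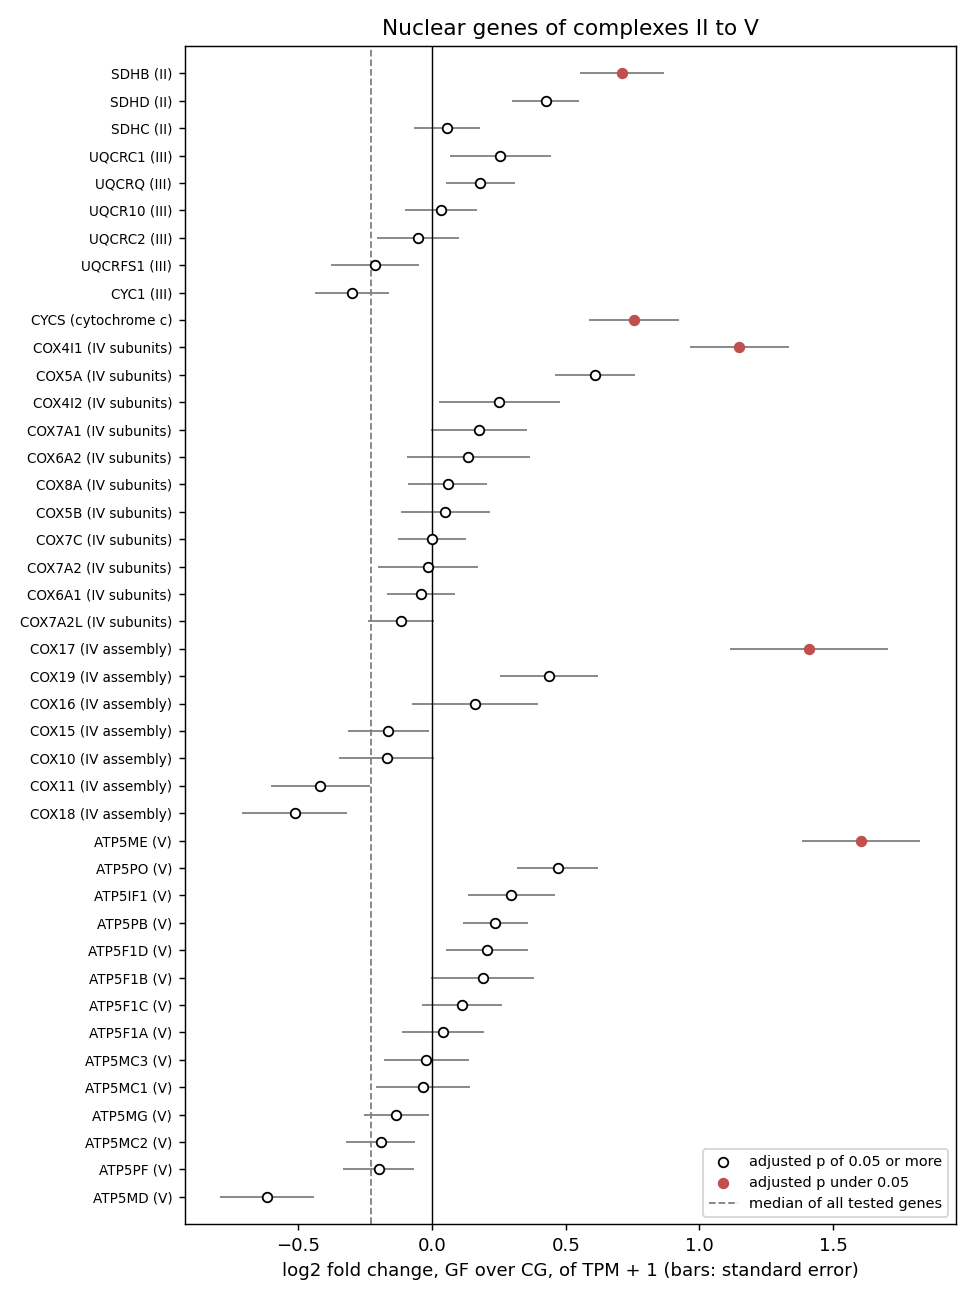
Log2 fold change (x axis, GF over CG, on TPM + 1) of the 42 genes, with the complex in parentheses, and bars for the standard error from 3 pigs a group; the dashed line marks the median of all tested genes. The 5 filled points, from SDHB at 0.71 to ATP5ME at 1.60, passed the test, and most other points lay close to 0.

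Most of the other genes had fold changes close to 0. The log2 fold change of 30 of the 42 was within 0.3 of 0, and the median was 0.058, against -0.23 for all tested genes. It was above 0 in 26 of the 42 (27.3% of all tested genes), in 31 when mtDNA genes were left out of the scaling (35.6%) and in 38 when each library was centred on the median of its tested genes (51.3%). Such a scaling shifts the members and all other genes alike. The split over the whole table depended on the scaling. Of all tested genes, 158 were higher and 722 lower as deposited, 116 and 147 without mtDNA genes in the scaling, and 265 and 129 with centred libraries, while 5, 4 and 7 members were higher and 0 were lower.

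In 10 of the 42 genes every GF pig was above every CG pig, in 5 every GF pig was below every CG pig, and in 27 the groups overlapped. Among all tested genes, 5.42% lay entirely above and 32.8% entirely below. The spread was wider in the GF pigs, with a median coefficient of variation of 14.9% in the GF pigs and 8.09% in the CG pigs. GF pig 2 was the lowest of the GF pigs in 30 of the 42 genes. The same library had the lowest sum of 10 neuronal markers (2481 TPM, against 3944 and 4087 in the other GF pigs and 3651 to 4082 in the CG pigs) and the highest sum of 11 oligodendrocyte markers (19876 TPM, against 6901 to 13792 in the other libraries). The part of this difference in the levels of GF pig 2 was not tested.

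Complex II, succinate dehydrogenase, had 1 of 3 genes higher. SDHB (ENSSSCG00000020926, chromosome 6, 75648362 to 75678111 in Sscrofa11.1) encodes the iron-sulfur subunit that passes electrons from the flavin to ubiquinone. Its level was 165.5, 122.2 and 149.2 TPM in GF pigs 1 to 3 and 95.7, 76.7 and 92.4 TPM in CG pigs 1 to 3. The groups did not overlap, and the mean was 1.65-fold higher in the GF pigs (log2 fold change 0.71, SE 0.16, adjusted p = 0.047). Without GF pig 1 and CG pig 3 the log2 fold change was 0.65 (adjusted p = 0.13, and 0.030 to 0.17 over all 14 alternatives).

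SDHD and SDHC are the membrane anchors of the complex. SDHD was 104.0, 100.9 and 108.0 TPM in the GF pigs and 88.5, 73.2 and 71.5 TPM in the CG pigs, without overlap, but it did not pass the test (log2 fold change 0.43, SE 0.13, adjusted p = 0.078). SDHC overlapped between the groups, at 35.3 to 39.0 TPM in the GF pigs and 32.8 to 37.9 TPM in the CG pigs. The ratio of SDHB to SDHC within a library was 4.25, 3.34 and 4.23 in the GF pigs and 2.67, 2.34 and 2.44 in the CG pigs. SDHC was picked after seeing the values, so this ratio restates the difference of SDHB. The flavoprotein subunit SDHA, found only through its gene ID, was 101.7, 68.4 and 78.7 TPM in the GF pigs and 82.8, 76.5 and 78.4 TPM in the CG pigs.

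None of the 6 genes of complex III passed the test in limma, with or without the expression trend (0 also at an unadjusted p under 0.05), and their median log2 fold change of -0.0088 became 0.09 without mtDNA genes in the scaling and 0.23 with centred libraries. CYC1, which encodes cytochrome c1, the heme protein that donates electrons to cytochrome c, was the most abundant at 216.1, 161.5 and 181.7 TPM in the GF pigs and 233.3, 232.9 and 217.9 TPM in the CG pigs. Every GF pig was below every CG pig, with GF pig 1 just under CG pig 3 (log2 fold change -0.30, SE 0.14, adjusted p = 0.19). UQCRFS1, the Rieske iron-sulfur protein, also did not overlap, at 66.1 to 96.0 TPM in the GF pigs and 97.7 to 99.2 TPM in the CG pigs, a gap smaller than the spread of the GF pigs. UQCRC1, a core protein on the matrix side, was 249.3, 152.4 and 195.3 TPM in the GF pigs and 178.2, 155.8 and 156.5 TPM in the CG pigs, where the groups overlapped. UQCRC2, UQCRQ and UQCR10 overlapped too. UQCR11, found only through its gene ID, was 17.8 to 21.0 TPM in the GF pigs and 13.6 to 18.0 TPM in the CG pigs, and overlapped.

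CYCS (ENSSSCG00000016714, chromosome 18, 47169921 to 47172212) encodes cytochrome c, the small soluble protein that carries electrons from complex III to complex IV. Its level was 64.1, 46.5 and 68.5 TPM in the GF pigs and 36.2, 34.5 and 32.9 TPM in the CG pigs. The CG pigs lay close together and every GF pig was above them. The mean was 1.73-fold higher in the GF pigs (log2 fold change 0.76, SE 0.17, adjusted p = 0.047), and without GF pig 1 and CG pig 3 the log2 fold change was 0.66 (adjusted p = 0.15, and 0.020 to 0.16 over the alternatives).

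Of the 11 subunits of complex IV, COX4I1 was higher and 10 did not pass. COX4I1 (ENSSSCG00000029034), the ubiquitous isoform of subunit IV, which binds adenine nucleotides and tunes the activity of the enzyme, had the highest mean of the 42 genes. It was 1439, 983.5 and 1117 TPM in the GF pigs and 552.1, 477.1 and 549.7 TPM in the CG pigs. The lowest GF pig was far above the highest CG pig, and the mean was 2.24-fold higher (log2 fold change 1.15, SE 0.18, adjusted p = 0.032). Without GF pig 1 and CG pig 3 the log2 fold change was 1.03 (adjusted p = 0.082, and 0.019 to 0.15 over the alternatives).

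COX5A, which sits next to subunit IV in the enzyme, was 148.8, 113.8 and 123.5 TPM in the GF pigs and 92.9, 84.7 and 73.7 TPM in the CG pigs. The groups did not overlap, and the gene narrowly missed the threshold (log2 fold change 0.61, SE 0.15, adjusted p = 0.056). Among the 11 subunits, the other abundant ones overlapped between the groups. COX7A2 was 654.0, 440.6 and 623.4 TPM in the GF pigs and 611.5, 519.5 and 582.3 TPM in the CG pigs, and COX8A was 489.8, 419.6 and 505.2 TPM and 472.9, 399.8 and 486.1 TPM. The ratio of COX4I1 to COX8A was 2.94, 2.34 and 2.21 in the GF pigs and 1.17, 1.19 and 1.13 in the CG pigs. Added up, the 11 subunits came to 3196, 2356 and 2831 TPM in the GF pigs and 2202, 1928 and 2102 TPM in the CG pigs, without overlap. With COX4I1 left out they came to 1757, 1373 and 1714 TPM and 1650, 1451 and 1552 TPM, and the groups overlapped. Neither sum includes COX7B, a subunit found only through its gene ID. COX7B was 307.2, 265.3 and 377.2 TPM in the GF pigs and 441.7, 454.7 and 446.1 TPM in the CG pigs. Every GF pig was below every CG pig, but COX7B did not pass in limma (log2 fold change -0.51, SE 0.16, adjusted p = 0.083). With COX7B added, the sum of all subunits would overlap between the groups as well.

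Several subunits of complex IV exist as tissue isoforms. COX4I2, an alternative to COX4I1 that is prominent in lung, was 5.78, 7.32 and 6.80 TPM in the GF pigs and 3.92, 5.67 and 6.93 TPM in the CG pigs, which was 0.400% to 0.739% of the summed COX4I1 and COX4I2 in the GF pigs and 0.705% to 1.25% in the CG pigs. COX6A2, the isoform of heart and skeletal muscle, was 9.75, 12.2 and 14.1 TPM in the GF pigs and 8.80, 14.4 and 9.68 TPM in the CG pigs, beside COX6A1 at 48.5 to 58.0 and 50.3 to 58.9 TPM. COX7A1, another muscle isoform, was 13.02, 15.6 and 13.4 TPM in the GF pigs and 14.0, 9.90 and 13.2 TPM in the CG pigs.

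The share of COX6A2 in its pair was 14.4% to 20.6% in the GF pigs and 12.99% to 22.3% in the CG pigs, and that of COX7A1 was 1.95% to 3.41% and 1.87% to 2.24%. The isoform shares were compared by a two-sided exact permutation test of 3 against 3, which cannot give a p under 0.10. Over the 6 shares compared, those of the ATP5MC genes included, p was 0.20 to 0.90 and each adjusted p was 0.90. Striated muscle markers, of which 5 of 10 were in the table, summed to 2.91 to 5.23 TPM in the GF pigs and 3.10 to 5.15 TPM in the CG pigs, with MYL1, TNNI2 and CKM under 0.5 TPM in every library. COX7A2L, which in mouse links complexes III and IV into supercomplexes, was 109.4, 113.2 and 122.4 TPM in the GF pigs and 134.2, 129.3 and 111.7 TPM in the CG pigs as a gene, and the groups overlapped.

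Of the 7 assembly factors of complex IV, COX17 was higher and 6 did not pass, and only COX17 had a mean above 20 TPM. COX17 (ENSSSCG00000011893, chromosome 13, 140584286 to 140594636), the copper chaperone of the intermembrane space that hands copper on for both copper centres of the enzyme, was 54.4, 60.2 and 42.4 TPM in the GF pigs and 29.0, 18.8 and 12.3 TPM in the CG pigs. Every GF pig was above every CG pig, although CG pigs spread widely (coefficient of variation 42.0%). The mean was 2.62-fold higher (log2 fold change 1.41, SE 0.30, adjusted p = 0.047). Without GF pig 1 and CG pig 3 the log2 fold change was 1.08 (adjusted p = 0.12, and 0.046 to 0.16 over the alternatives).

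The other copper factors did not pass the test. COX19, a further copper protein of the intermembrane space, was 10.7, 12.6 and 10.2 TPM in the GF pigs and 8.26, 6.64 and 9.17 TPM in the CG pigs, without overlap and above CG (log2 fold change 0.44, SE 0.18, adjusted p = 0.15). COX11, which delivers copper to the subunit encoded by mtDNA COX1, was 4.13, 4.01 and 5.31 TPM in the GF pigs and 5.64, 6.86 and 6.39 TPM in the CG pigs, without overlap and below CG (log2 fold change -0.42, SE 0.18, adjusted p = 0.17). The ratio of COX17 to COX11 was 13.2, 15.0 and 7.99 in the GF pigs and 5.14, 2.74 and 1.92 in the CG pigs.

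COX18, which inserts part of the mtDNA-encoded COX2 into the membrane, was 4.32, 3.04 and 4.67 TPM in the GF pigs and 6.45, 6.23 and 5.58 TPM in the CG pigs, where every GF pig was below every CG pig (log2 fold change -0.51, SE 0.20, adjusted p = 0.13). COX15, the heme A synthase, was 11.9, 13.2 and 15.0 TPM in the GF pigs and 14.2, 15.2 and 15.6 TPM in the CG pigs. COX10, which makes the precursor of heme A, and COX16 overlapped between the groups at 2.74 to 5.56 TPM. The median log2 fold change of the 7 factors was -0.16 as deposited and -0.07 without mtDNA genes in the scaling, but 0.08 with centred libraries.

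**Figure D2:**
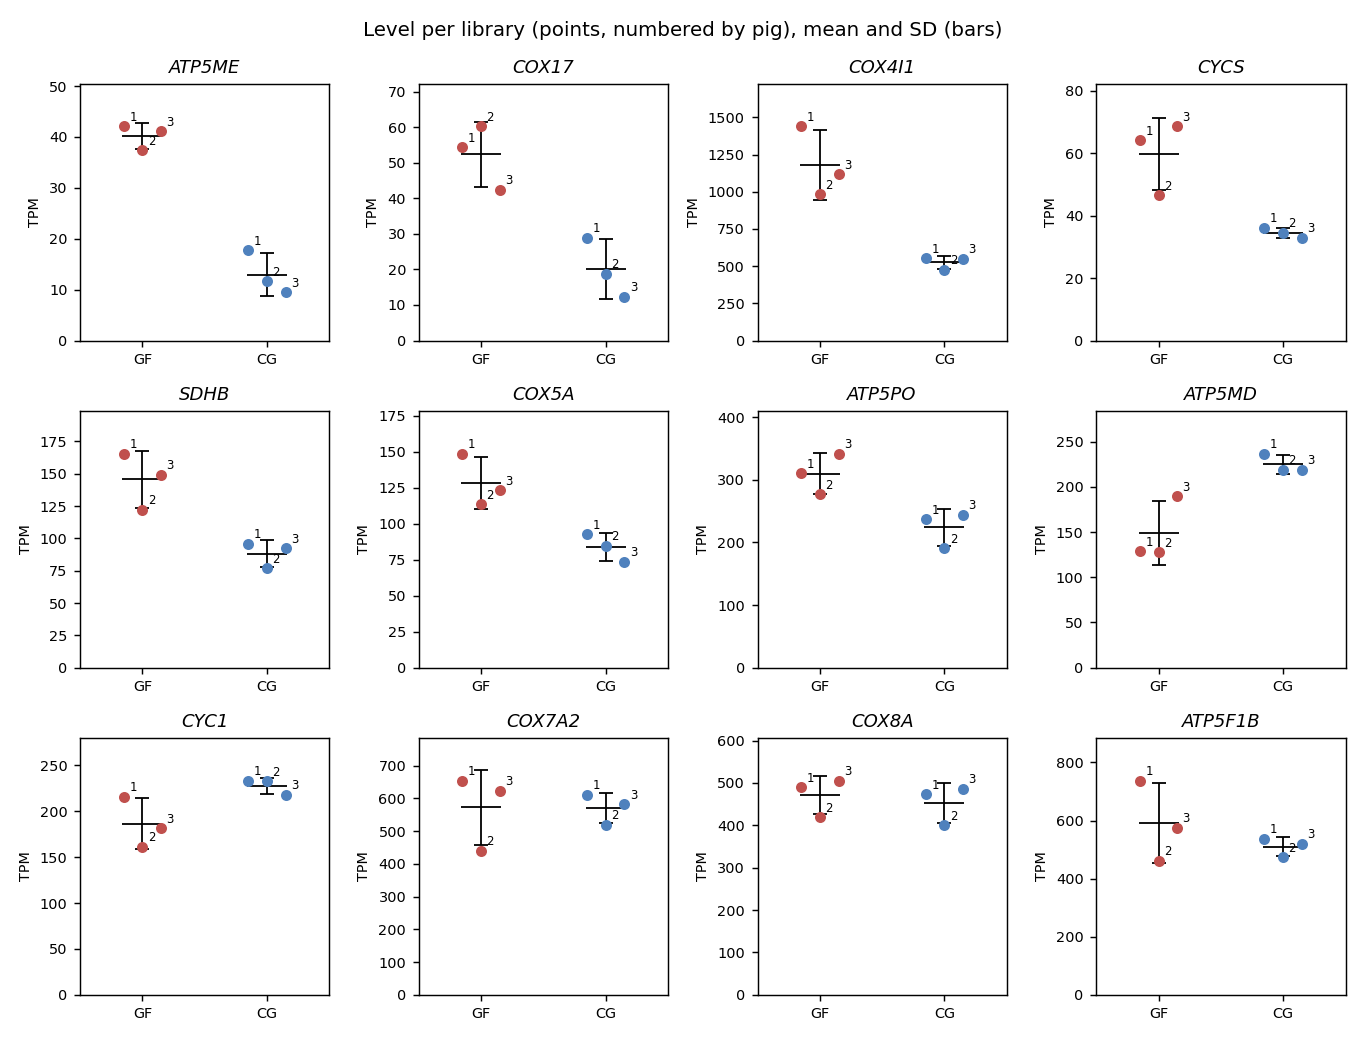
TPM (y axis, from 0) of 12 genes in each of the 3 GF and 3 CG pigs, with points numbered by pig and bars for the mean and SD. The 5 genes that passed the test and COX5A and ATP5PO are above CG in every GF pig, ATP5MD and CYC1 are below in every GF pig, and COX7A2, COX8A and ATP5F1B overlap.

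Of the 14 genes of complex V, ATP5ME was higher and 13 did not pass. ATP5ME (ENSSSCG00000023903, chromosome 8, 112092 to 113526) encodes subunit e, a small membrane protein at the interface where ATP synthases pair into dimers. Its level was 42.1, 37.4 and 41.1 TPM in the GF pigs and 17.7, 11.7 and 9.46 TPM in the CG pigs. The GF pigs lay close together and the lowest of them was above the highest CG pig by more than the range of either group. This was the largest fold change of the 42 genes, with a mean 3.10-fold higher in the GF pigs (log2 fold change 1.60, SE 0.22, adjusted p = 0.027), and without GF pig 1 and CG pig 3 the log2 fold change was 1.39 (adjusted p = 0.078, and 0.017 to 0.13 over the alternatives).

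The other small membrane subunits did not pass the test. ATP5MD, a small membrane protein of the synthase also known as DAPIT, was 128.8, 127.8 and 189.9 TPM in the GF pigs and 236.8, 219.2 and 218.8 TPM in the CG pigs. Every GF pig was below every CG pig, but the gene did not pass (log2 fold change -0.62, SE 0.18, adjusted p = 0.073), and it had the largest negative log2 fold change of the 42. ATP5MG, subunit g, which neighbours subunit e, was 96.6, 86.5 and 92.8 TPM in the GF pigs and 106.5, 106.2 and 90.8 TPM in the CG pigs.

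No gene of the catalytic head passed the test. ATP5F1B, the beta subunit that carries the catalytic sites, was 737.0, 462.5 and 575.1 TPM in the GF pigs and 537.0, 473.6 and 519.8 TPM in the CG pigs, and the groups overlapped. ATP5F1A, ATP5F1C and ATP5F1D, the alpha, gamma and delta subunits, overlapped as well. The ratio of ATP5F1B to ATP5ME was 17.5, 12.4 and 14.0 in the GF pigs and 30.3, 40.6 and 55.0 in the CG pigs.

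In the peripheral stalk, which holds the head in place, ATP5PO (subunit OSCP) was 310.9, 277.0 and 341.9 TPM in the GF pigs and 237.4, 190.5 and 244.0 TPM in the CG pigs. The groups did not overlap, and the gene did not pass the test (log2 fold change 0.47, SE 0.15, adjusted p = 0.091). ATP5PB (subunit b) was also without overlap, at 214.2 to 254.4 TPM in the GF pigs and 190.1 to 209.7 TPM in the CG pigs, and ATP5PF overlapped. ATP5IF1, the inhibitor that stops the enzyme from hydrolysing ATP when the gradient fails, was 419.1, 313.6 and 439.3 TPM in the GF pigs and 319.0, 291.0 and 334.4 TPM in the CG pigs, and GF pig 2 lay within the range of the CG pigs.

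The 3 ATP5MC genes encode the same mature c subunit of the rotor ring behind different import sequences. ATP5MC1 was 294.1, 212.1 and 214.5 TPM in the GF pigs and 276.4, 244.0 and 212.4 TPM in the CG pigs. ATP5MC2 was 240.5, 283.6 and 262.2 TPM and 287.8, 283.4 and 327.3 TPM, and ATP5MC3 was 27.4, 20.03 and 24.9 TPM and 25.5, 22.2 and 25.3 TPM. In every library ATP5MC3 was the least abundant, with 3.88% to 4.96% of the sum of the 3 genes in the GF pigs and 4.04% to 4.47% in the CG pigs.

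In some members the gene sum hid differences among transcripts. Of the 90 transcripts, 68 were expressed enough to test, and 8 of them were higher in the GF pigs and 1 was lower, against 2.29% and 5.25% of all 27945 tested transcripts. The 8 belonged to COX4I1 (2 transcripts), CYCS, ATP5ME, SDHB, COX17, ATP5F1C and ATP5PB, and the lower one to COX7A2L. CYCS, ATP5ME and COX17 have 1 transcript each, so theirs repeat the result of the gene. The transcript of ATP5PB was tested only because it was expressed in the GF pigs. Both COX4I1 transcripts passed under all 9 alternatives tried at this level, and those of ATP5F1C and ATP5PB under 8. When GF pig 1 and CG pig 3 were both left out, 2 transcripts were higher (both of COX4I1) and 0 lower, with an adjusted p of 0.071 for that of ATP5F1C and 0.055 for that of ATP5PB. How reads were shared out among the overlapping transcripts of a gene was not tested.

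The difference of COX4I1 lay in 2 of its transcripts. The leading one, ENSSSCT00000029520, was 1045, 693.4 and 862.4 TPM in the GF pigs and 235.5, 207.0 and 203.9 TPM in the CG pigs (4.02-fold, log2 fold change 1.99, adjusted p = 0.0036, and 0.0044 to 0.043 under the alternatives). A minor one, ENSSSCT00000073541, differed 5.78-fold (log2 fold change 2.36, adjusted p = 0.0056, and 0.0060 to 0.033 under the alternatives). The remaining abundant transcript, ENSSSCT00000081159, had a mean of 284.3 TPM in the GF pigs and 305.8 TPM in the CG pigs and overlapped. The leading transcript thus made up 70.5% to 77.2% of COX4I1 in the GF pigs and 37.1% to 43.4% in the CG pigs.

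ATP5F1C, the gamma subunit that turns inside the head, overlapped as a gene, but its transcript ENSSSCT00000055086 was 71.5, 54.5 and 65.6 TPM in the GF pigs and 19.7, 12.5 and 12.8 TPM in the CG pigs (4.26-fold, log2 fold change 2.04, adjusted p = 0.0052, and 0.0075 to 0.071 under the alternatives). Its leading transcript ENSSSCT00000037064 was on the other side, with a mean of 141.8 TPM in the GF pigs and 173.5 TPM in the CG pigs and no overlap, and made up 65.7% to 68.9% of the gene in the GF pigs and 86.7% to 90.7% in the CG pigs. In ATP5PB, the transcript ENSSSCT00000086059 was 11.4, 10.1 and 29.8 TPM in the GF pigs and was listed at 0 in all 3 CG pigs. It thus passed the filter on low values only through the group where it was high. Its adjusted p (0.0046, and 0.0023 to 0.055 under the alternatives) is therefore no separate support. The leading transcript of ATP5PB was 214.8 TPM in the GF pigs and 193.6 TPM in the CG pigs on average.

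COX7A2L differed between the groups in the shares of its main transcripts. ENSSSCT00000045711 was 36.4, 32.0 and 38.4 TPM in the GF pigs and 78.1, 63.7 and 57.5 TPM in the CG pigs (1.87-fold lower, log2 fold change -0.87, adjusted p = 0.028, and 0.035 to 0.099 under the alternatives). ENSSSCT00000009268, with a mean of 79.1 TPM in the GF pigs and 57.6 TPM in the CG pigs, made up 66.5% to 71.3% of the gene in the GF pigs and 40.9% to 49.7% in the CG pigs. ATP5MG showed a similar pattern below the threshold, since its leading transcript made up 57.8% to 59.9% in the GF pigs and 70.3% to 73.3% in the CG pigs. Among the 16 members with several transcripts of at least 5 TPM, the share of the leading transcript did not overlap between the groups in 9, which is 56.3%, against 43.5% of 4310 such genes in the table.

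**Figure D3:**
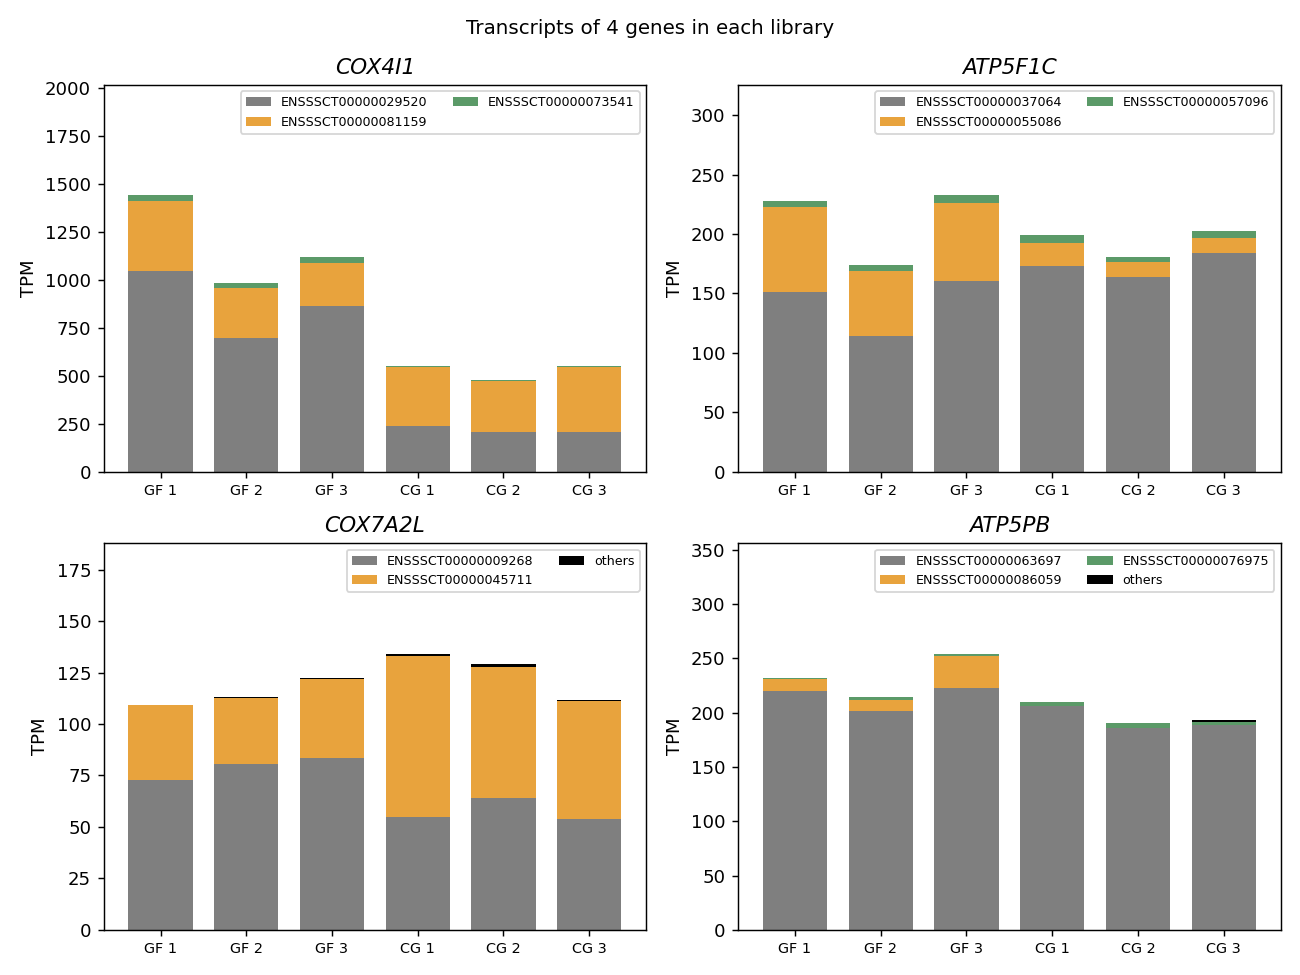
TPM (y axis, from 0) of the transcripts of COX4I1, ATP5F1C, COX7A2L and ATP5PB in each library, stacked so that a bar is the gene's total. In COX4I1 the transcript shown in grey and in ATP5F1C the one in orange are larger in every GF pig, while in COX7A2L the orange one is smaller.

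The subunits of complexes III to V that mtDNA encodes were set beside their nuclear partners. Summed per library, the 14 nuclear genes of complex V came to 3449, 2712 and 3259 TPM in the GF pigs and 3032, 2741 and 2920 TPM in the CG pigs, whereas ATP6 and ATP8 together came to 13648, 15824 and 18689 TPM and 4271, 5359 and 3045 TPM. The ratio of mtDNA-encoded to nuclear TPM in complex V was 3.96 to 5.83 in the GF pigs and 1.04 to 1.96 in the CG pigs, without overlap. In complex III, with CYTB as the only mtDNA gene, it was 5.56 to 8.46 and 3.43 to 5.21. In complex IV it was 33.2 to 40.9 and 26.5 to 40.4, where the groups overlapped.

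Of the 6 mtDNA genes of complexes III to V, ATP8 and ATP6 were higher in the GF pigs and 4 did not pass (median log2 fold change 1.13). With GF pig 1 and CG pig 3 left out, ATP8 still passed (log2 fold change 3.92, adjusted p = 0.032, and 0.0032 to 0.043 under the alternatives) and ATP6 did not (adjusted p = 0.085, and 0.030 to 0.15 under the alternatives). ATP8, which lies partly over ATP6 on the mitochondrial genome, so that reads of the overlap can belong to either, was 2901, 3901 and 5160 TPM in the GF pigs and 244.2, 356.4 and 155.9 TPM in the CG pigs. All 13 mtDNA genes took 17.8% of the mRNA TPM in each GF pig and 8.17% to 11.8% in the CG pigs. The 42 nuclear genes took 0.782% to 0.979% in the GF pigs and 0.718% to 0.818% in the CG pigs, where the groups overlapped. That total includes the mtDNA genes. With mtDNA genes left out of the total, the share was 0.95% to 1.19% in the GF pigs and 0.81% to 0.91% in the CG pigs, without overlap. This lack of overlap depended on COX4I1, the most abundant member. With COX4I1 left out, the members summed to 6711, 5240 and 6318 TPM in the GF pigs and 5937, 5350 and 5637 TPM in the CG pigs. These sums overlapped, and so would their share of the total without mtDNA genes.

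**Figure D4:**
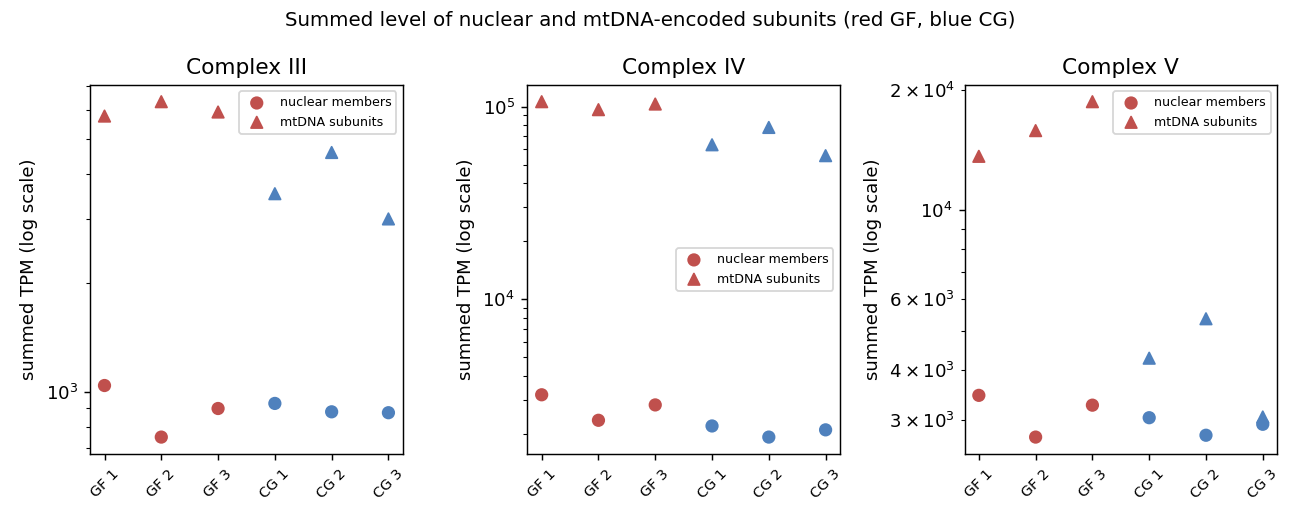
Summed TPM (y axis, log scale) of the nuclear members (circles) and of the mtDNA-encoded subunits (triangles) of complexes III, IV and V in each GF (red) and CG (blue) pig. In complex V the triangles of the GF pigs, at 13648 to 18689 TPM, lie far above those of the CG pigs, at 3045 to 5359 TPM, while the circles overlap.

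Of 30 tested nuclear subunits of complex I, NDUFA13 and NDUFA6 were higher in the GF pigs, none was lower and 28 did not pass, while 5 of the 7 mtDNA-encoded subunits of complex I were higher, against 1.08% of all tested genes higher and 4.93% lower. NDUFA13 was 181.1, 159.8 and 181.5 TPM in the GF pigs and 61.2, 48.2 and 58.3 TPM in the CG pigs (log2 fold change 1.63, adjusted p = 0.0058), a larger log2 fold change than that of any member. It was 1.63 without GF pig 1 and CG pig 3 (adjusted p = 0.056), and the adjusted p was 0.0031 to 0.056 over the alternatives. NDUFA6 did not pass without these libraries either (adjusted p = 0.082, and 0.013 to 0.15 over the alternatives). Of 22 tested assembly factors of complexes II to V outside the name rule, HIGD2A, which takes part in the assembly of complex IV, was lower in the GF pigs at 127.0, 100.3 and 124.3 TPM against 197.8, 181.2 and 170.3 TPM. Its log2 fold change was -0.64 (adjusted p = 0.047), but it passed under only 3 of 14 alternatives (0.042 to 0.16, and 0.10 without GF pig 1 and CG pig 3). The other 21 did not pass, and 1 of 22 is close to the 4.93% of all tested genes that were lower.

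None of 9 carriers and pores that serve the ATP synthase, 15 regulators of mitochondrial gene expression and 12 enzymes of the citric acid cycle passed the test in limma. At an unadjusted p under 0.05, CKMT2 of the carriers and PPRC1 and YY1 of the regulators were lower, and IDH3A and IDH3B of the citric acid cycle were higher. At that level 26.6% of all tested genes were lower and 4.31% higher. CKMT2 was 0.53, 0.99 and 0.81 TPM in the GF pigs and 2.90, 2.89 and 1.72 TPM in the CG pigs. It thus passed the filter on low values only through the CG pigs, where it was high. Without the expression trend 1 carrier, 0 regulators and 0 enzymes passed. Among the regulators, NRF1, a transcription factor known to drive nuclear genes of the respiratory chain, was 15.3, 26.3 and 18.6 TPM in the GF pigs and 25.0, 28.9 and 29.2 TPM in the CG pigs (log2 fold change -0.48, adjusted p = 0.17). The median log2 fold changes of these 3 lists were -0.02, -0.16 and 0.17, against -0.23 for all tested genes.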

How the data were processed

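Long RNA of 3 GF and 3 CG pigs was analysed. The deposited values are TPM of mRNA transcripts, which the authors made from reads aligned to Sscrofa11.1. The labels name fastp, HISAT and RSEM, and the paper's methods name TopHat, Cufflinks and HTSeq. TPM keep no depth, so no counting error could be given, and edgeR, which the study used, was not run.

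TPM were added up per gene ID. Values of log2(TPM + 1) were compared (GF minus CG) by limma-trend (R 4.3.3, limma 3.58.1), for genes or transcripts of at least 1 TPM in at least 3 libraries, with Benjamini-Hochberg adjustment over all of them. Genes are called higher or lower at an adjusted p under 0.05. In simulated data of 14641 genes, 60% of those changed by a log2 of 1 and 89% of those changed by 2 passed. The changes were set only in well expressed genes, 100 for each size, up and down alike and with normal noise. These rates therefore do not cover the members with a mean under 20 TPM, nor a shift of the whole table. Fold changes of means are ratios of TPM, whereas log2 fold changes use TPM + 1 and understate those of low genes. The rest was done in Python 3.11.15 (pandas 2.3.3, numpy 2.4.6, matplotlib 3.10.9, scipy 1.17.1).

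The members and lists were chosen with earlier results of these data known. Values per library are given for the genes that passed, for the 2 most abundant genes and those with the largest rise and fall in each complex, and for the isoform sets. Chosen after seeing the values were SDHC, UQCRFS1, COX5A, COX8A, COX11, COX19, ATP5PO, ATP5PB, ATP5MG, the 3 genes without a name, the Y-linked genes, and the transcripts. Each ratio between members sets a gene that passed beside a gene that did not, so it is no separate support. Positions come from RefSeq (Sscrofa11.1), where 26 of the 42 genes were matched. Replicate numbers were not treated as pairs of pigs in the main fit. Promoter and protein sequences, lncRNA and miRNA were not used here.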

Additional observations from a re-analysis of the deposited data

How the results depend on the processing

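The 13 members whose log2 fold changes are given kept their direction under all 14 alternatives. The number of members higher in GF pigs was 5 as reported, 3 with a pseudocount of 0.1, 2 without a filter on low values, 4 without mtDNA genes in the scaling, 7 with centred libraries, 3 by limma without trend and 0 with a replicate block, and it was 0 to 5 when 1 library was left out. With a log2 fold change of at least 1 also required it was 3 as reported, 0 with a replicate block and 0 to 2 without 1 library. Without GF pig 1 and CG pig 3 together, an alternative chosen after seeing the data, both counts were 0. No alternative gave a member that was lower. The cause of these losses was not tested. The median log2 fold change of the members was 0.30 with centred libraries. Over these 13 members and 14 alternatives, 136 values stayed on the same side of the threshold, 43 lost the call and 3 gained it.

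Same-numbered pigs did not deviate together (correlations -0.024, 0.058 and -0.010, against -0.10 to 0.084 for pigs of different numbers). Whether pigs with the same number shared a batch was not tested. In the block fit 5 transcripts were higher and 0 were lower, and without GF pig 1 and CG pig 3 together 2 and 0. When 1 library was left out, 4 to 7 transcripts were higher and 0 to 1 were lower, and 4 of the 9 passed each time.

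For isoform shares, leaving out 1 library gave differences (GF minus CG, in percentage points) of -0.63 to -0.36 for COX4I2, -0.136 to 4.52 for COX6A2, -0.080 to 0.649 for COX7A1, -1.01 to 4.60 for ATP5MC1, -5.23 to 0.869 for ATP5MC2 and 0.0992 to 0.636 for ATP5MC3. The number of reads behind a TPM value is unknown, so differences among the genes below 10 TPM (most assembly factors of complex IV) cannot be weighed against counting error. With 3 pigs a group no single value can go below p = 0.10 in an exact permutation test.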
